A study of Mus musculus with 6 samples.

Results

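Tripartite motif (Trim) proteins share an amino-terminal block of a RING finger, 1 or more B-box zinc fingers and a coiled coil, and most act as RING-type ubiquitin ligases. They differ in what follows the coiled coil: a PRY-SPRY domain in most, and in smaller classes NHL repeats, a PHD finger with a bromodomain, or a COS box that binds microtubules. In embryonic stem cells the best known member is Trim28, the corepressor that KRAB zinc finger proteins bring to endogenous retroviruses. The genes described here were chosen by their symbol (Trim and a number, with or without a letter), leaving out Trim25, Trim56 and Trim71. The rule found 58 of the 31310 named genes, and 374 isoforms were summed to give their levels.

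PolyA RNA was sequenced, strand-specifically, from TT-FHAgo2, a clonal line of mouse embryonic stem cells in which doxycycline drives Argonaute 2 (Ago2), the protein that loads microRNAs and binds their targets. The line was propagated at 0.1 µg/mL doxycycline, so both groups had seen the drug. In 2 libraries it was raised to 2.5 µg/mL for 48 h, and in 2 libraries it was withdrawn (0 µg/mL) for 96 h. The groups therefore differ in both dose and time, which cannot be told apart, and no library was taken at 0.1 µg/mL. Where a gene is said below to rise, fall or go from some values to others, the 2 groups are compared and no culture was followed over time. All values come from 1 clone. The labels do not say whether the 2 libraries of a condition are separate cultures, and the p-values below then cover only the spread between libraries, which may be technical. Values are FPKM, fragments scaled by transcript length and library size, which can be compared between genes.

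The libraries were checked before the family was read. Ago2, listed under its older symbol, stood at 35.2 and 36.7 FPKM with doxycycline and at 28.7 and 28.8 without it, a log2 change of -0.32 (SE 0.08, adjusted p = 0.0287 by limma). Its RNA was thus lower without doxycycline but not absent, and the sum over all named genes, given below, was lower too. The level sums the isoforms under that symbol, and the doxycycline-driven transcript was not told apart from any other. The files give no depth, but in the 2 libraries numbered 1 the values of single-isoform genes were whole multiples of 1 read in 99.9% and 100% of cases (within 0.1 read), at library totals of 45.7 M and 46.8 M fragments. There, 3 reads on a 2000 nt transcript amount to 0.0359 and 0.0352 FPKM. In the libraries numbered 0 only 43.2% and 44.0% of values were whole, so their depth is not known. All 9 embryonic stem cell markers in the table were tested: 1 passed as higher without doxycycline (Nanog), 3 as lower (Klf4, Zfp42 and Utf1) and 5 did not pass. Of all genes tested, 19.7% passed as higher and 21.3% as lower. Of 5 blood cell markers in the table, Ptprc was at or below 0.0157 FPKM and Lyz2 at 0 in all libraries, whereas Cd68 and Cd3e passed as higher without doxycycline and the summed level went from 9.97 and 9.82 to 19.02 and 17.03 FPKM. Among markers of other cell types, Gap43 (neuron, log2 change -2.85) and Actn2 (striated muscle, -0.798) passed as lower. Gata4 (primitive endoderm, 0.677) passed as higher, but it averaged 1 FPKM or more only without doxycycline and was the only marker of its list tested. Of the others, Sox7 (0.663 and 0.572 against 0.0482 and 0.0549 FPKM) and Dab2 (0.716 and 0.877 against 0.171 and 0.277 FPKM) were lower. Sox17 was higher at trace levels (0 and 0.0219 against 0.0399 and 0.0435 FPKM). The summed level of the list went from 2.09 and 2.43 to 1.70 and 1.95 FPKM. Tubb3 (neuron), Ttn (striated muscle) and Thy1 (fibroblast) did not pass, and the trophoblast markers were too low to test. The part of these shifts in the values below was not tested.

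MicroRNAs pair with targets through their seed, bases 2 to 8, and the longest annotated 3′ untranslated region of every Trim gene was searched for matches to 3 of them. They are miR-291a-3p of the stem cell cluster miR-290, miR-17-5p, whose seed shares most of its letters with it, and let-7a-5p, known to be scarce in pluripotent cells. The mature sequences are those of RefSeq on GRCm38.p6, with the seed in capitals.
mmu-miR-291a-3p: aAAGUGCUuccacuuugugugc
mmu-miR-17-5p: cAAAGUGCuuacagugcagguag
mmu-let-7a-5p: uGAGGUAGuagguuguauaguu

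An 8mer is a match to the whole seed followed by A, and a 7mer lacks either that A or the last seed base. No Trim gene held an 8mer for miR-291a-3p: 0 of 28 tested genes and 0 of all 58, beside 3.58% of the 11495 tested genes with an annotated region. With 7mers counted, 8 of the 28 (28.6%) had a site, beside 20.7% of all genes. For miR-17-5p, 4 of 28 had an 8mer (Trim3, Trim6, Trim8 and Trim36; 14.3% beside 4.45%), and for let-7a-5p 2 of 28 (Trim6 and Trim67; 7.14% beside 3.71%). With 7mers counted the shares were 35.7% beside 21.7% for miR-17-5p and 17.9% beside 16.9% for let-7a-5p. The counts were not adjusted for region length. Regions had 588 (Trim3), 2220 (Trim6), 1182 (Trim8), 2113 (Trim36) and 5619 bases (Trim67), beside a median of 1141 over all tested genes. Among all genes those with a miR-291a-3p 8mer had a median log2 change of 0.21 without doxycycline and those without one -0.04.

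Trim6 stood out for let-7: its region of 2220 bases carried 5 8mers, each 45 bases after the last, and only 2 of 11453 tested symbols carried 5 or more. The sites below are examples, chosen to show the repeated let-7 match of Trim6, 8mers for miR-17 and let-7, and 7mers for miR-291a-3p in genes that passed the test. Trim36, with a miR-17 8mer, and other genes with 7mers are not shown. They are given on the transcript strand from GENCODE mouse release 21 (GRCm38), with the match in capitals and its position in the untranslated region.
Trim6 let-7 8mer, bases 541 to 548: tgattatagatCTACCTCAcagtgcctgac
Trim6 let-7 8mer, bases 586 to 593: tgattatagctCTACCTCAcagcacctgac
Trim6 miR-17 8mer, bases 971 to 978: tgttacattcaGCACTTTAtgtttgctgac
Trim8 miR-17 8mer, bases 880 to 887: tcctacagggaGCACTTTAtctgaatcatg
Trim3 miR-17 8mer, bases 158 to 165: accccacggttGCACTTTAtttattcggtt
Trim67 let-7 8mer, bases 1398 to 1405: acccgccagtcCTACCTCAgaattctttct
Trim67 miR-291a-3p 7mer, bases 4481 to 4487: gtgaccagggcAGCACTTgtcacactgct
Trim2 miR-291a-3p 7mer, bases 4138 to 4144: aatgaatgtacAGCACTTccattaacttt

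The Trim6 windows repeat almost letter for letter, with 4 distinct versions among the 5. The 7mer of miR-291a-3p in Trim6, at bases 970 to 976, overlaps its miR-17 8mer. A match is a description of letters and does not show that a microRNA acts there.

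The family spanned undetected to very abundant. With doxycycline Trim28 alone stood at 725 and 708 FPKM, 59.2% and 58.2% of the summed level of the 58 genes. Without it Trim28 made up 52.6% and 53.5%. The family sum was 1224 and 1217 FPKM with doxycycline and 991 and 1031 without, and 500 and 509 against 470 and 480 FPKM when Trim28 was left out. The sum over all named genes was also lower without doxycycline, at 449360 and 485192 against 508954 and 535107 FPKM. As a share of that sum the family made up 0.241% and 0.228% with doxycycline and 0.220% and 0.213% without. How far the drop in FPKM is one of the scale was not tested. In every library 16 genes were above 10 FPKM, and 14 genes were below 0.1 FPKM, 2 of them (Trim42 and Trim55) at 0. The remaining genes lay between, so that few members carried most of the family's RNA.

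**Figure D1:**
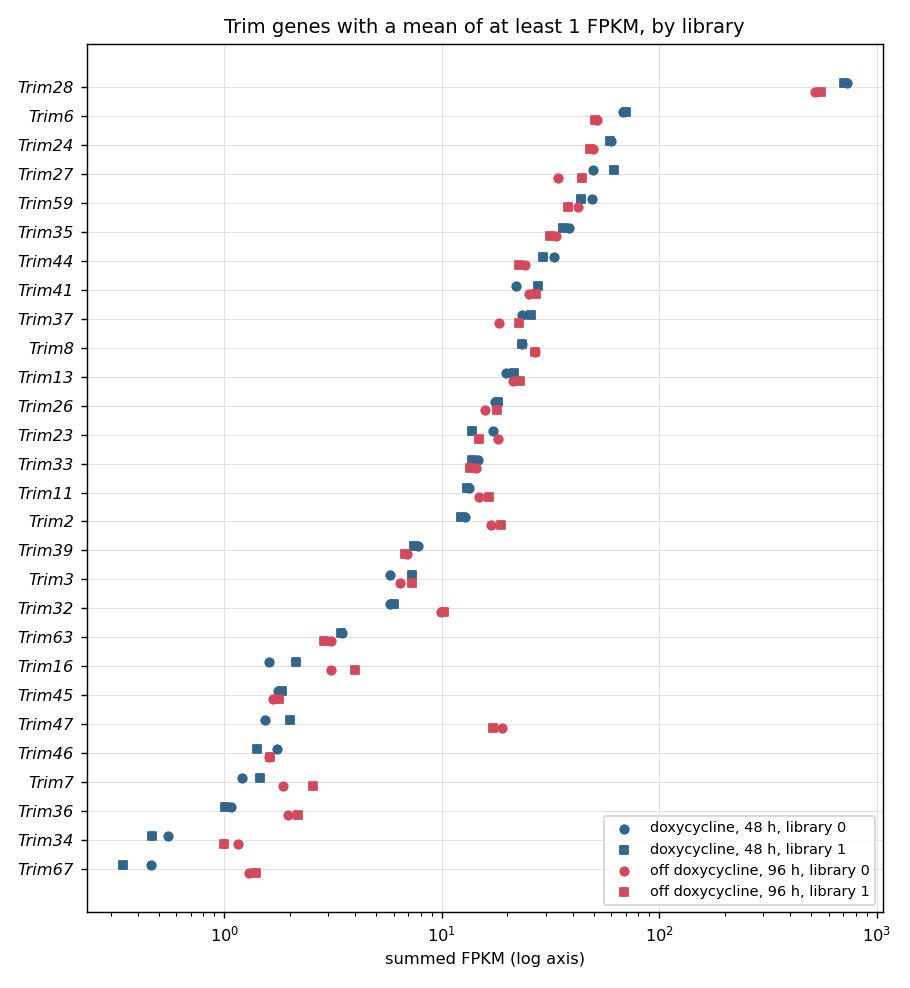
Summed FPKM (log axis) of the 28 Trim genes that averaged 1 FPKM or more in a condition, 1 point per library, ordered by the mean with doxycycline. Trim28 lies far above the rest, and Trim47 is the gene whose 2 conditions lie farthest apart.

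Differences between conditions were tested in the 13207 genes that averaged 1 FPKM or more in a condition, on log2(FPKM + 0.5), a scale that understates changes of low genes. Of the 28 Trim genes in that test, 12 passed an adjusted p of 0.05 (limma, Benjamini-Hochberg over all genes), 42.9% beside 41% of all genes. Without doxycycline 8 were higher (28.6%, beside 19.7% of all genes) and 4 lower (14.3%, beside 21.3%). On a TPM scale (FPKM rescaled to 1 sum in every library) 13 of 15 calls were higher, and with library medians set equal 8 of 14. Over all genes the calls were higher in 48.1% as deposited, 67.6% on the TPM scale and 38.0% with equal medians. The median log2 change was 0.05 over the 28 and -0.06 over all genes, and the TPM scale moved the latter to 0.10. Because the family was picked with this comparison known, these counts and the adjusted p-values describe it and nothing is read from them. The 2 libraries of one condition lay wholly above those of the other in 20 of the 28 genes (71.4%, beside 73.1% of all genes).

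In bulk RNA a lower level in each cell and fewer cells with the transcript cannot be told apart.

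**Figure D2:**
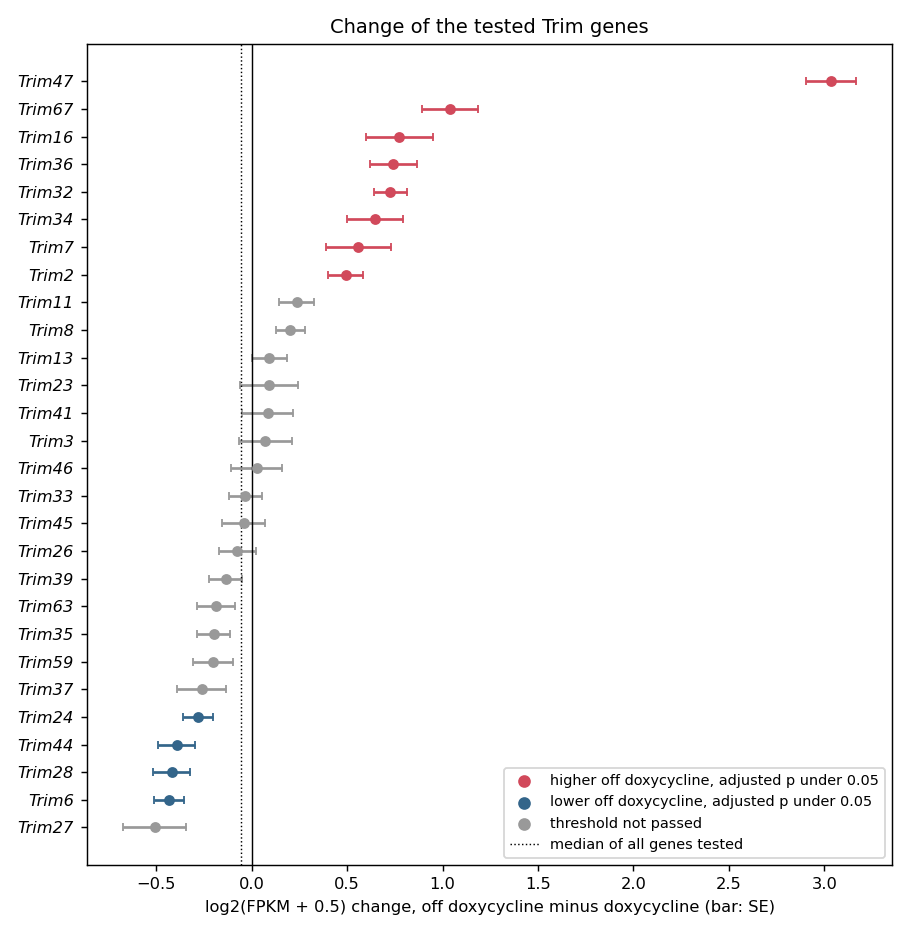
Log2(FPKM + 0.5) change of each tested Trim gene, off doxycycline minus doxycycline, with its standard error (bar) and colour by the result of the test. The dotted line is the median of all genes tested (-0.06), and the change of 3.03 of Trim47 stands apart from those of the other genes, which run from -0.51 to 1.04.

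Of the 3 tested members of the PHD and bromodomain class, 2 fell without doxycycline, beside 21.3% of all genes. Trim28 went from 725 and 708 to 521 and 551 FPKM, a 1.34-fold lower level (log2 change -0.42, SE 0.10, adjusted p = 0.0227). Trim24, a coregulator of nuclear receptors and a ligase for p53, went from 60.1 and 59.1 to 49.7 and 48.1 FPKM (log2 change -0.28, SE 0.08, adjusted p = 0.0397). Both sets of libraries were apart in these genes. Trim33, which acts on Smad proteins, stayed within the spread at 14.6 and 13.7 against 14.3 and 13.4 FPKM (adjusted p = 0.78). Trim66, the remaining member, was at 0.182 and 0.307 against 0.141 and 0.0577 FPKM and was not tested. The annotated full-length Trim28 transcript of 3245 nt carried 606 and 573 FPKM with doxycycline and 434 and 446 without, and 8 shorter isoforms annotated as retained introns made up most of the rest. The calls of Trim28 and Trim24 were each lost on the TPM scale, without either doxycycline library and without library 0 of the other condition, with the direction kept. That of Trim24 was also lost without the other condition's library 1.

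Of 14 genes listed as partners of Trim28 in silencing, all tested, 1 was higher without doxycycline, 2 were lower and 11 did not pass (median log2 change -0.10), beside 41% of all genes called and a median of -0.06. The chromatin remodeller Chd3 went from 7.01 and 6.41 to 10.6 and 12.0 FPKM. Cbx1, a heterochromatin protein that Trim28 binds, went from 124 and 130 to 78.6 and 82.4 FPKM. Smarcad1, a remodeller that binds Trim28, went from 64.2 and 61.3 to 53.1 and 50.4 FPKM. Setdb1, the histone methyltransferase of the complex, was at 38.5 and 40.1 against 45.2 and 51.1 FPKM and did not pass.

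**Figure D3:**
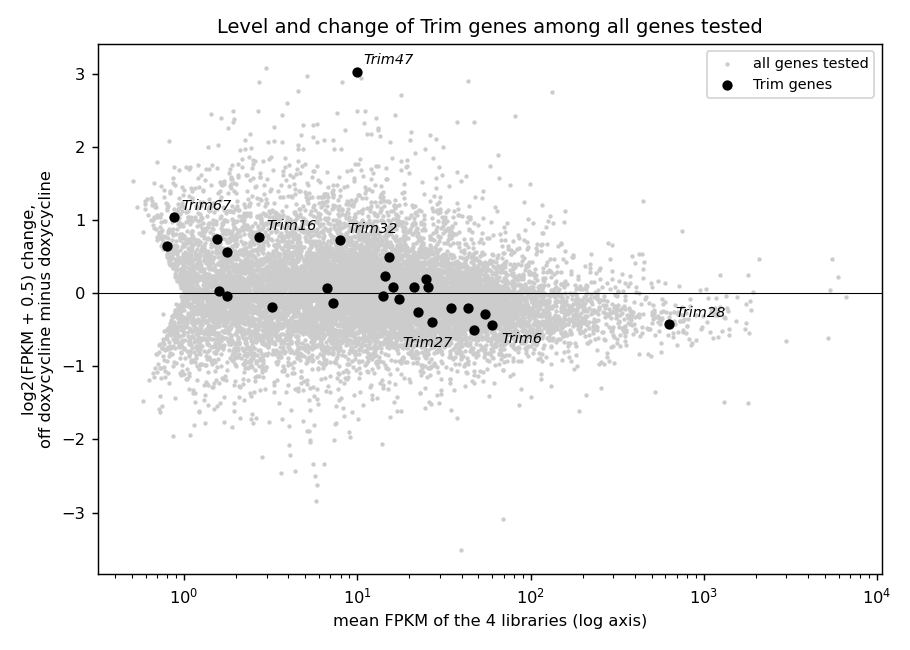
Mean FPKM of the 4 libraries (log axis) against the log2(FPKM + 0.5) change for the 13207 genes tested (grey) and the 28 Trim genes (black). Trim47 lies at the upper edge of all genes, with 1 gene above it, and the 6 members highest in level with doxycycline lie below 0.

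Of the PRY-SPRY class, 29 genes by the symbols of the file, 10 were tested: 3 were higher without doxycycline, 1 was lower and 6 did not pass. The shares over all genes were 19.7% higher and 21.3% lower. Trim47 had the largest change of the family, from 1.54 and 2.01 FPKM to 18.8 and 17.2 FPKM, 10.2-fold (log2 change 3.03, SE 0.13, adjusted p = 0.00119). Only 1 of the 13207 genes had a larger rise on this scale, and Trim47 moved from rank 23 to rank 12 of the family by level. It passed under all 17 alternatives, with log2 changes of 2.78 to 3.34. Most of its estimated level was not in the annotated coding transcripts. A 1503 nt isoform annotated as a processed transcript, with 4 exons at the 3′ end of the gene, went from 0.650 and 1.23 to 10.5 and 11.7 FPKM. The annotated coding transcript of 2204 nt went from 0.000506 and 0.000115 to 2.02 and 1.60 FPKM, and the near-identical coding transcript of 2192 nt was at 0.353 and 0.274 against 1.00 and 0 FPKM. Isoforms matched to coding transcripts held 23.0% and 17.8% of the gene's level with doxycycline and 18.3% and 15.2% without, a similar total share, although single isoforms shifted within it.

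Trim47 lies on the minus strand of chromosome 11 (115967066 to 115988524 on NCBIM37), and 1 assembled isoform of 519 nt, at 0 FPKM in both libraries without doxycycline, overlaps Trim65, which is on the same strand at 115983160 to 115992442. Trim65 was under the level for testing, at 0.238 and 0.203 FPKM with doxycycline and 0.912 and 0.738 without, and its 2 coding isoforms were each higher in both libraries without the drug. Because the 2 genes overlap on 1 strand, reads in the shared stretch can be split between them by the authors' estimation. Among neighbours within 50 kb, Wbp2 (49.7 and 51.2 to 83.8 and 83.6 FPKM) and Unc13d (3.80 and 4.39 to 5.53 and 6.89 FPKM) also passed as higher. Fbf1, Mrpl38 and Unk did not pass, and Mrpl38 was level at 55.3 and 57.0 against 53.4 and 59.1 FPKM.

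**Figure D4:**
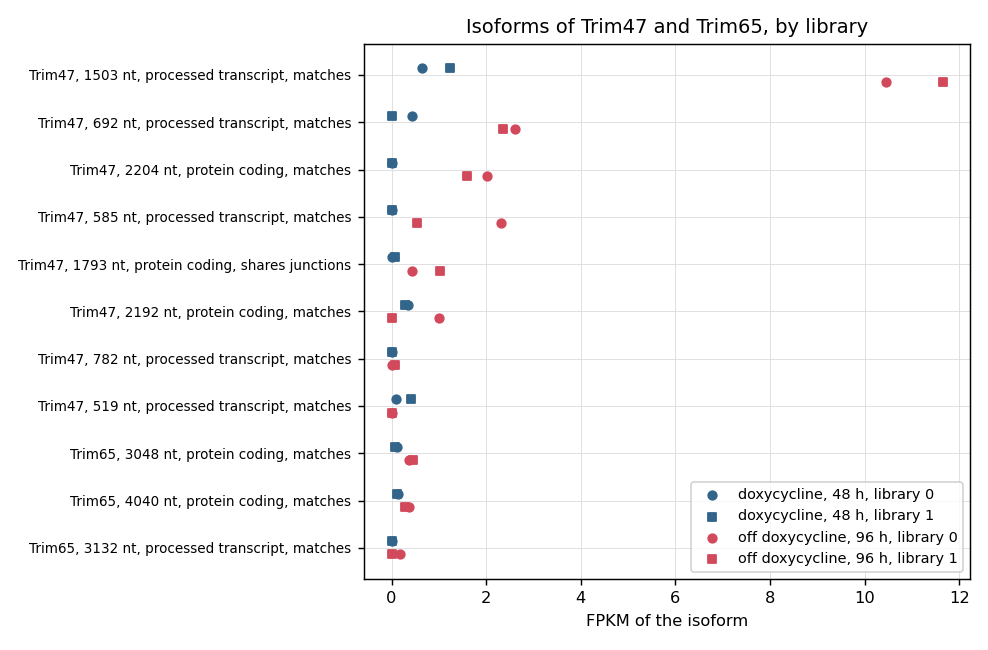
FPKM of every isoform of Trim47 and Trim65 used in the sums, 1 point per library, with the length, the annotated type of the nearest transcript and whether the isoform matches it or shares junctions with it. The 1503 nt processed transcript of Trim47 holds 10.5 and 11.7 FPKM without doxycycline, more than any other isoform.

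Trim6, known to bind Myc in mouse embryonic stem cells and second in level in the family, was the lower gene of the class. It went from 68.0 and 70.5 to 51.5 and 50.8 FPKM (log2 change -0.43, SE 0.08, adjusted p = 0.0126), and its main 3827 nt isoform, went from 48.3 and 44.6 to 40.0 and 34.9 FPKM. This is the gene with the 5 let-7 matches and the miR-17 8mer printed above. Its call was lost without either doxycycline library, with the most abundant isoform alone and with matching isoforms only. On the TPM scale it was kept at a smaller log2 change of -0.27.

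Trim7, a glycogenin-binding ligase, was at 1.20 and 1.45 FPKM with doxycycline and at 1.87 and 2.55 without (adjusted p = 0.0498, the weakest of the calls, lost in 8 of 16 alternatives). Trim34, a relative of the retroviral restriction factor Trim5, was at 0.550 and 0.467 against 1.16 and 1.00 FPKM (log2 change 0.65, SE 0.15, adjusted p = 0.0225, a call lost without doxycycline library 1 or the other condition's library 0), and it entered the test only through the condition in which it was high. In library 0 its level moved from a 2460 nt isoform (0.549 to 0 FPKM) to a 2481 nt isoform (0.000973 to 0.958 FPKM). In library 1 the same forms stood at 0.176 and 0.150 FPKM with doxycycline and at 0.000456 and 0.878 without. These near-identical assembled forms span Trim5 and Trim12 on the opposite strand, and the estimate of either alone is uncertain. Isoforms matched to annotated coding transcripts of Trim34 were at 0 FPKM in every library. The gene's level and its rise were therefore wholly in forms whose nearest transcript had no type in the annotation used. Whether these forms code for Trim34 was not tested.

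The other 6 tested PRY-SPRY genes did not pass. Trim27, a transcriptional corepressor first found fused to Ret, had the largest difference of these, at 49.7 and 61.6 against 34.2 and 43.9 FPKM (log2 change -0.51, SE 0.16, adjusted p = 0.0594). The spread inside each condition was wide, with library 1 the higher in both. Taken by library number, the log2 changes of Trim27 were -0.53 (number 0) and -0.48 (number 1). In a limma fit that also held the library number it passed (adjusted p = 0.0017). Trim35 was at 38.4 and 36.0 against 33.3 and 31.2 FPKM, and Trim11 at 13.3 and 13.0 against 14.8 and 16.4 FPKM, also without overlap. Trim41 (21.9 and 27.7 against 25.04 and 27.21 FPKM) and Trim26 (17.5 and 18.1 against 15.81 and 17.99 FPKM) overlapped. Trim39 was at 7.73 and 7.47 against 6.94 and 6.79 FPKM.

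All 3 members of the NHL class were tested and 2 rose, beside 19.7% of all genes. Trim32, which binds Argonaute 1 in neural progenitors and is mutated in a limb-girdle muscular dystrophy, went from 5.769 and 5.995 to 9.86 and 10.3 FPKM, 1.71-fold (log2 change 0.73, SE 0.09, adjusted p = 0.00419). Trim2, a ligase for neurofilament light chain, went from 12.8 and 12.2 to 16.8 and 18.8 FPKM (log2 change 0.49, SE 0.09, adjusted p = 0.014, a call lost without doxycycline library 1). In Trim2 the share of the level in isoforms matched to coding transcripts was 28.5% and 28.8% with doxycycline and 10.2% and 10.1% without. By these estimates the gene's rise was outside those isoforms. Any isoform whose nearest transcript had no type in the annotation used counts as outside. The split of reads among the 33 isoforms of Trim2 is uncertain, and whether the rising forms are coding was not tested. Trim3, the brain-enriched relative of Trim2, was at 5.76 and 7.26 against 6.40 and 7.27 FPKM and did not pass.

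In the COS box class, 4 of 6 listed genes were tested, 2 were higher (beside 19.7% of all genes) and 2 did not pass. Trim67 went from 0.460 and 0.341 to 1.29 and 1.40 FPKM, 3.36-fold (log2 change 1.04, SE 0.15, adjusted p = 0.00655), and like Trim34 it reached the level for testing only without doxycycline. Trim36, known from the sperm acrosome, went from 1.07 and 1.00 to 1.96 and 2.18 FPKM, 2-fold (log2 change 0.74, SE 0.12, adjusted p = 0.00959). Both passed under every alternative in which they were tested. Trim46, which bundles microtubules at the start of the axon, was at 1.74 and 1.41 against 1.60 and 1.62 FPKM. Mid1, a relative with the same domains, was at 4.42 and 4.17 against 4.47 and 4.57 FPKM, and neither passed.

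The members without a RING finger went both ways. Trim16, which acts with galectin-3 at damaged lysosomes, went from 1.60 and 2.14 to 3.097 and 4.001 FPKM (log2 change 0.77, SE 0.18, adjusted p = 0.0226). Trim44, which has a ubiquitin-protease-type zinc finger in place of the RING, went from 32.6 and 29.1 to 24.2 and 22.6 FPKM (log2 change -0.39, SE 0.10, adjusted p = 0.0279). Of the 2, Trim44 lost its call on leaving out any 1 of the 4 libraries, and Trim16 without doxycycline library 0 or the other condition's library 1.

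None of the other tested members passed. They are the membrane-anchored Trim59 (49.1 and 43.8 against 42.4 and 38.0 FPKM) and Trim13 (19.7 and 21.4 against 21.2 and 22.8 FPKM), and Trim8, a regulator of Socs1 (23.3 and 23.3 against 26.8 and 26.8 FPKM). Trim37, the MATH-domain member of the peroxisome and centrosome, was at 23.4 and 25.7 against 18.3 and 22.7 FPKM. Trim23, which carries an ARF-type GTPase domain, was at 17.1 and 13.8 against 18.2 and 14.8 FPKM. These differences run both ways, and of the genes just given Trim13 and Trim23 had overlapping libraries. The muscle ligase Trim63 was at 3.47 and 3.43 against 3.08 and 2.86 FPKM, and Trim45, with a filamin repeat, at 1.76 and 1.83 against 1.67 and 1.78 FPKM. Over the 16 genes that did not pass, adjusted p ran from 0.0594 to 0.89.

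The remaining 30 genes were below 1 FPKM on average in both conditions and were not tested. Of the 16 that reached 0.1 FPKM in a library, 12 had libraries without overlap (75.0%, beside 51% of all genes at that level), 6 in each direction. Trim52, a single-exon gene of 3079 nt, was at 0.789 and 0.549 FPKM with doxycycline and 0.116 and 0.126 without, an estimated 73.0 and 17.0 reads in the libraries of known depth. Trim54, a muscle relative of Trim63, was at 0.718 and 0.502 against 0.282 and 0.209 FPKM. Both lay below their doxycycline values in both libraries. Trim68 was also lower, at 0.377 and 0.534 against 0.319 and 0.210 FPKM. Trim21, the cytosolic antibody receptor, was higher without doxycycline, at 0.545 and 0.580 against 0.998 and 0.957 FPKM, as was Trim30, at 0.379 and 0.502 against 0.652 and 0.577 FPKM. Trim62 hardly differed, at 0.420 and 0.421 against 0.427 and 0.505 FPKM. The others that reached 0.1 FPKM (Trim12, Trim14, Trim17, Trim40, Trim43c, Trim61, Trim66, Trim72 and Trim75) stayed under 0.5 FPKM in every library.

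**Figure D5:**
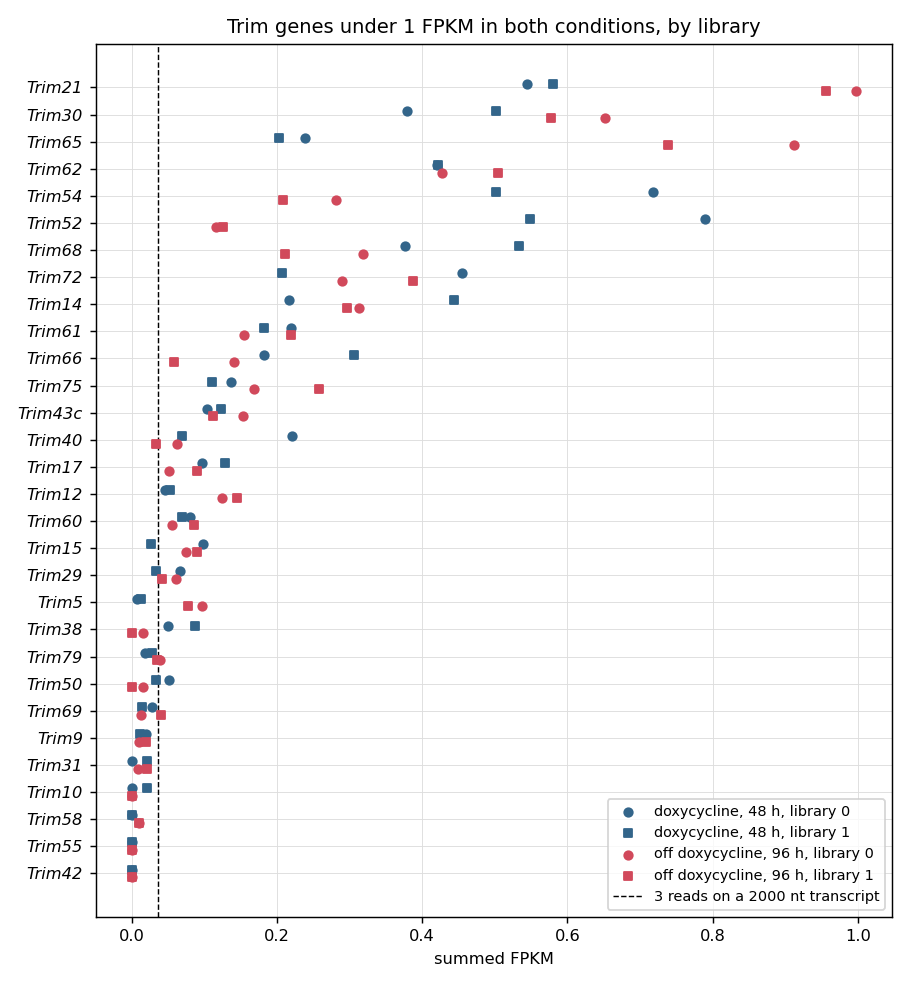
Summed FPKM of the 30 Trim genes below 1 FPKM on average in both conditions, 1 point per library, with a dashed line at the value of 3 reads on a 2000 nt transcript (0.0359 FPKM). Trim52 and Trim54 lie lower without doxycycline and Trim21 and Trim65 higher, and the lowest genes lie at or left of the line.

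The 14 genes near 0, below 0.1 FPKM in every library, were Trim5, Trim9, Trim10, Trim15, Trim29, Trim31, Trim38, Trim42, Trim50, Trim55, Trim58, Trim60, Trim69 and Trim79. In the libraries of known depth none of them had more than an estimated 12.0 reads. Trim5 was the clearest of them, at 0.00754 and 0.0129 against 0.0975 and 0.0781 FPKM, an estimated 1.97 and 12.0 reads. Trim42 and Trim55 were at 0 in every library. A count of 0 there allows up to 0.0286 and 0.0281 FPKM for Trim42 and up to 0.0406 and 0.0399 FPKM for Trim55, by counting error alone. At these levels absence and a low level cannot be told apart.

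The members lie on 15 chromosomes, and 24 of them in 7 clusters of neighbours less than 1 Mb apart. The cluster on chromosome 7 (111367307 to 111656363 on NCBIM37) holds Trim6, Trim34, Trim5, Trim12, Trim30 and Trim79. Trim6 fell there, whereas the other 5 each had both libraries without doxycycline above both with it, as did 26.9% of all genes above 0 in a library. Of these, Trim79 and Trim5 rest on few reads. In the libraries of known depth they had an estimated 3.94 and 1.97 reads with doxycycline and 5.01 and 12.0 without. The 5 genes above Trim6's direction are close paralogs whose shared reads can be split differently by the estimation, so their separate levels are uncertain. The 6 genes of the cluster on chromosome 17 (36392590 to 37047159) had no call, with Trim39 and Trim26 tested. Trim75, Trim60 and Trim61 on chromosome 8 and Trim21 and Trim68 on chromosome 7 were too low to test.

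Several Trim genes are known to be induced by interferon, and the interferon-stimulated response element, TTTCNNTTTC, was therefore searched on both strands of RefSeq promoters (250 bases before to 50 after the start, GRCm38.p6). This search was chosen after the values of the members had been seen. A promoter was held for 44 of the 58 genes, and 8 had the motif, beside 3.99% of all genes and 3.44% of all promoters. They are shown because 5 of them lie in the chromosome 7 cluster, where 2 pairs of genes share the whole stretch printed. The motif is in capitals, and positions count from the annotated start, negative before it.
Trim34, chr7:104244457-104244486, plus strand, position 10: tggtttggagTTTCAGTTTCttttctctgc
Trim5, chr7:104288136-104288165, minus strand, position -49: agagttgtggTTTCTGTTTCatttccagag
Trim12, chr7:104315466-104315495, minus strand, position 10: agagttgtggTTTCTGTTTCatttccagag
Trim30, chr7:104465210-104465239, minus strand, position -36: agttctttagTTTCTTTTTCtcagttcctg
Trim79, chr7:104507871-104507900, minus strand, position -41: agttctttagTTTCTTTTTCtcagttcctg
Trim21, chr7:102565444-102565473, minus strand, position 19: agaggaaactGAAAGTGAAAtttggactgc
Trim2, chr3:84212791-84212820, minus strand, position 28: tcagctttggTTTCCTTTTCtctaagacag
Trim26, chr17:36836976-36837005, plus strand, position -160: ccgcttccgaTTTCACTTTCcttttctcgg

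Of all genes above 0 in a library, those with the motif had both libraries without doxycycline above both with it in 35.4% of cases, and those with a promoter lacking it in 30.0%. The motif genes of the cluster share sequence and reads and are not independent. Because the search followed from the members' values, nothing is read from the values of the 8 genes. A letter match does not show that a factor binds there.

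Of 25 interferon-stimulated genes listed, 11 were tested: 8 were higher without doxycycline, 2 lower and 1 did not pass (median log2 change 0.92, beside -0.06 over all genes, of which 19.7% were higher and 21.3% lower). Irf9, the DNA-binding part of the interferon-activated factor, went from 4.61 and 6.31 to 17.9 and 19.3 FPKM, and its partner Stat2 from 3.70 and 4.44 to 7.596 and 8.698 FPKM. Against that direction Bst2, a tether of budding viruses, went from 40.3 and 47.5 to 14.8 and 18.5 FPKM, and the RNA sensor Ddx58 from 18.3 and 18.3 to 11.2 and 12.2 FPKM. The other 14 were under 1 FPKM on average in both conditions and were not tested.

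Genes that work with Trim ligases were read from lists. Of 13 ubiquitin-conjugating enzymes tested, 2 were higher without doxycycline, 5 lower and 6 did not pass (median log2 change -0.35, beside -0.06 over all genes). For this and the next lists the shares over all genes were 19.7% higher and 21.3% lower. The largest difference among the 13 was that of Ube2e1, from 39.8 and 44.5 to 17.7 and 19.2 FPKM. Of 6 tested Mage genes, whose proteins bind and activate Trim and other RING ligases, 1 was higher (Maged1, 45.9 and 52.6 to 60.5 and 71.4 FPKM) and 1 lower (Mageh1, 8.13 and 8.13 to 5.94 and 5.21 FPKM). Of 5 tested relatives without a Trim symbol, 1 was lower (Bspry, 6.25 and 5.91 to 4.75 and 4.61 FPKM) and 4 did not pass, among them Pml at 50.03 and 56.24 against 44.7 and 50.9 FPKM.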

How the data were processed

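Isoform FPKM values were deposited by the authors, made with TopHat2 2.0.9 and Cufflinks 2.1.1 on NCBIM37, per the submitters' processing notes. The isoforms are those of a deposited Cuffmerge annotation. Isoforms of at least 200 nt that matched or shared a junction with a named transcript were summed per gene symbol (374 of 380 Trim isoforms). Limma 3.58.1 in R 4.3.3, with a mean-variance trend, compared the conditions on log2(FPKM + 0.5) in the 13207 genes averaging 1 FPKM or more in a condition. P-values are two-sided and were adjusted over these genes by Benjamini and Hochberg's method at 0.05. The procedure was tested on simulated data. The libraries carry the numbers 0 and 1, which the labels do not tie to their replicate numbers, so they were treated as unpaired. Read steps gave the depth of 2 libraries. The TPM used as an alternative was computed from the deposited FPKM. Tables were made with Python 3.11.15 and pandas 2.3.3. Every tested Trim gene is named with its values, the others by range, and by name at 0 or above 0.5 FPKM. The members and lists were chosen with earlier results of these data known. The search of Trim proteins for the RING pattern was not run, and miR-122-5p, miR-1a-3p and miR-124-3p were not searched. The spike-in samples of the stem cells and of mesenchymal stem cells were not analysed here. 1 neighbour of Trim47 is not reported here.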

Additional observations from a re-analysis of the deposited data

How the results depend on the processing

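With a minimum of 5 FPKM, 20 Trim genes were tested in place of 28 and 7 passed in place of 12, with no call lost among those tested. The calls became 3 with the most abundant isoform alone and 4 with isoforms that match a known transcript only, with 25 Trim genes tested in each. Leaving out 1 library gave 5 to 9 Trim calls (7 without doxycycline library 0 and 5 without doxycycline library 1) and, over all genes, 3229 to 4416 in place of 5417 (3480 and 3229 without those libraries). Over all genes the most abundant isoform gave 2053 calls and matching isoforms 2590. Counting 7mers of miR-291a-3p gave 8 of the 28 tested Trim genes with a site, and 11 of all 58. With the library number as a replicate block, 18 Trim genes and 8157 genes passed. The differences between libraries 0 and 1 correlated across genes at 0.46 between conditions. Libraries of 1 number were also alike in read steps: 43.2% and 44.0% of values were whole in those numbered 0, against 99.9% and 100% in those numbered 1. The main fit left the number out. The labels do not say what it marks, and with 2 pairs its effect was not tested. On the TPM scale 15 of 33 Trim genes passed.

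Of 461 values by gene and alternative, 384 kept their direction and side of the threshold, 43 lost a call, 14 gained one and 20 changed sign, each of the 20 in a gene without a call. Log2 changes that turned on leaving out 1 library ranged from -0.060 to 0.25 in Trim23 (-0.052 in the other turn), -0.17 to 0.014 in Trim26, -0.083 to 0.23 in Trim3 (-0.013), -0.079 to 0.013 in Trim33 (0.011), -0.082 to 0.25 in Trim41 and -0.090 to 0.14 in Trim46. The TPM scale turned Trim26 (0.081), Trim33 (0.12), Trim39 (0.014) and Trim45 (0.093). The most abundant isoform turned Trim26 (0.085), Trim37 (0.028), Trim39 (0.025) and Trim45 (0.21), matching isoforms Trim33 (0.12), equal medians Trim46 (-0.037) and a length of 500 nt Trim46 (-0.0036). Trim47, Trim67 and Trim36 passed under all alternatives in which they were tested. The cause of these changes was not tested. Depth limits what can be said of the 30 genes under 1 FPKM.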
